A study of Mus musculus with 8 samples.

Results

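The 37 genes of mouse mitochondrial DNA were followed through RNA-seq libraries of 2 cell fractions, before and after heat shock. They were picked by Ensembl identifier out of 28785 genes with a value in at least 1 library. No level or fold entered the rule, but they were chosen with earlier results of these data known. They comprise 22 tRNAs, 2 rRNAs and 13 mRNAs. The cells, embryonic fibroblasts from mice (connective tissue cells kept in culture), had the genotype TSC2+/+ on a C57BL/6J background. One group was left unstressed, and the other had 1 h of heat shock at 42 °C and then 3 h of recovery at 37 °C. From each group a cytoplasmic fraction and a pellet taken as chromatin were collected, with a-amanitin, an inhibitor of nuclear RNA polymerase II, in the lysis buffers. Each fraction and condition has 1 library, so no difference below has a replicate check or a test, and the values describe these 4 libraries. The other 4 of the 8 samples, inputs and m6A immunoprecipitates of chromatin RNA, were not analysed here. The cell type was not checked against marker genes, because names were at hand for the mitochondrial identifiers only.

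Mitochondria lie in the cytoplasm and keep a small circular genome of their own. Both of its strands are transcribed inside the organelle as long RNAs in which tRNAs stand between the rRNAs and mRNAs. Enzymes cut the tRNAs out at both ends, which also frees their neighbours. The rRNAs form the mitochondrial ribosome, which reads the mRNAs with the mitochondrial tRNAs. Its products are core subunits of the respiratory chain and of ATP synthase.

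Values are RPKM, the reads of a gene scaled to its length and to the total reads of the library. The identifiers follow the gene order of mitochondrial DNA, and symbols are those of RefSeq's GRCm38.p6 annotation. The match was checked through the RefSeq lengths, since RPKM times length gives whole reads once the library total is right. Totals found from the rRNAs and mRNAs alone made 88 of 88 tRNA values whole (tolerance 0.0001 read). With the lengths moved along by 1 gene in either direction, the same search found a total in 0 of the 4 libraries. The library totals implied by the values were 18364642 reads for unstressed chromatin, 19536459 for heat-shocked chromatin, 8292312 for unstressed cytoplasm and 11131382 for heat-shocked cytoplasm. Intervals are exact 95% Clopper-Pearson intervals. They cover counting error only, since the reads carry no molecular identifiers and several may stem from 1 molecule.

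Of the 37 genes, 36 had a value in at least 1 library and 32 in all 4. All 22 tRNAs and both rRNAs were among the 32, and 33 genes reached the mean of 1 RPKM over the 4 libraries that was required for counts of 2-fold differences. COX2 (subunit 2 of cytochrome c oxidase; MT, 7013 to 7696) had no value in the files used here and was not analysed. COX3, ND3 and ND4L were below that mean. COX3 had 2 reads in heat-shocked chromatin, 4 in heat-shocked cytoplasm and none in the other libraries. ND3 had 1 read in each unstressed library and 2 in heat-shocked chromatin, and ND4L had 3 reads in heat-shocked chromatin, 2 in unstressed cytoplasm and 4 in heat-shocked cytoplasm. ATP6, a subunit of ATP synthase, had no read in unstressed chromatin, 4 in heat-shocked chromatin, 11 in unstressed cytoplasm and 15 in heat-shocked cytoplasm. These genes lie together on the MT sequence, from COX2 to the end of ND4L at 10173.

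The tRNAs placed between them were well covered. In heat-shocked cytoplasm TrnK had 788 reads, TrnG 869 and TrnR 3933. ATP8, which overlaps ATP6, had 161 reads there. On chromosome 1, RefSeq lists the pseudogenes Gm10925 (24613971 to 24614651) and Gm10222 (24612404 to 24612700), with Atp6 among the synonyms of the former. Gm10925 has the 681 bp of ATP6 and Gm10222 the 297 bp of ND4L. Gm10925 and Gm10222 lie 1270 bases apart, against 1269 between ATP6 and ND4L. How the authors treated reads that match more than 1 place is not given in the sources used here, so values from COX2 to ND4L, and of the genes beside them, are uncertain. The part of such copies in the low counts was not tested.

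Mitochondrial genes took a larger share of chromatin reads after heat shock than before, and a nearly equal share of cytoplasmic reads. They held 0.107% of unstressed chromatin reads (19679 reads, interval 0.106 to 0.109) and 0.423% of heat-shocked chromatin reads (82652 reads, 0.420 to 0.426). In cytoplasm they held 1.46% (120823 reads, 1.45 to 1.47) and 1.42% (157653 reads, 1.41 to 1.42). The chromatin share was thus 3.95-fold higher after heat shock (3.89 to 4.01), and the cytoplasmic one 0.972 times that without it (0.965 to 0.979). The cytoplasmic direction depends on the total used, as the shares were 5.99% without and 6.99% after heat shock once the 10 other genes with the most reads were left out of it. Fewer mitochondria in a fraction and less RNA per mitochondrion cannot be told apart from these values.

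The make-up of the mitochondrial reads also differed between libraries. The rRNAs held 80.5% of them in unstressed chromatin (79.9 to 81.0), 60.2% in heat-shocked chromatin (59.9 to 60.5), 72.4% in unstressed cytoplasm (72.2 to 72.7) and 63.3% in heat-shocked cytoplasm (63.1 to 63.6). The tRNAs held 13.1% (12.6 to 13.6), 32.1% (31.8 to 32.4), 23.7% (23.4 to 23.9) and 31.8% (31.6 to 32.1) in the same order. After heat shock the tRNA shares of both fractions had overlapping intervals, while without heat shock chromatin was the lower. The mRNAs held 6.42% (6.08 to 6.77), 7.73% (7.55 to 7.92), 3.86% (3.76 to 3.97) and 4.85% (4.75 to 4.96), and both chromatin shares were above both cytoplasmic ones. The plot of reads by RNA class shows these shares.

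**Figure D1:**
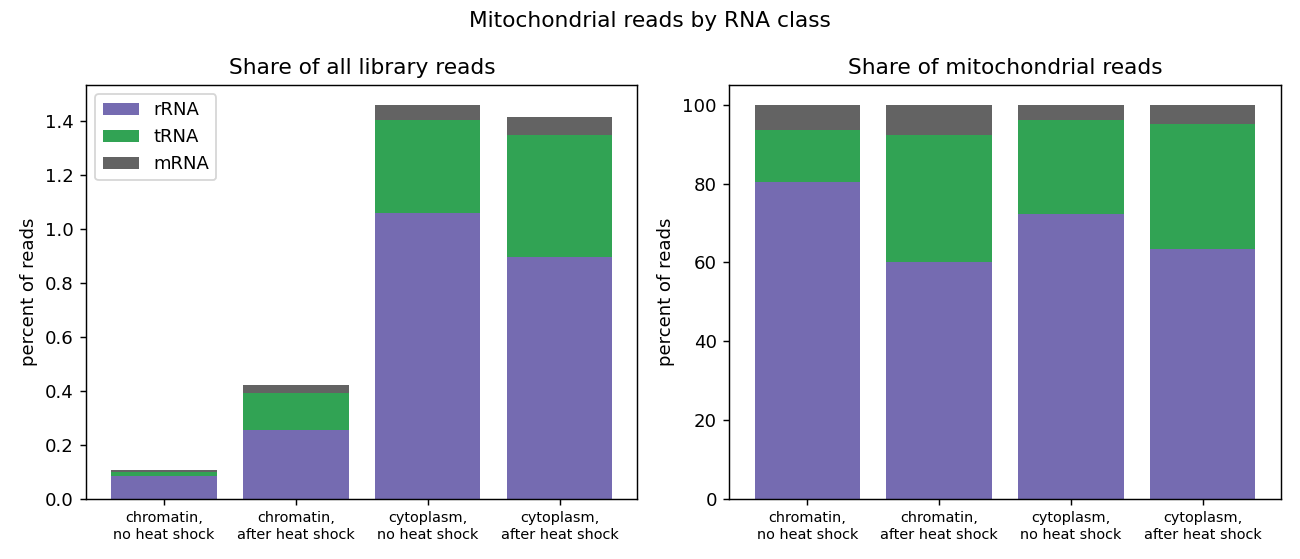
Share of reads (percent) held by mitochondrial rRNAs, tRNAs and mRNAs in the 4 libraries, of all library reads (left) and of mitochondrial reads (right). Heat-shocked chromatin holds 0.423% mitochondrial reads against 0.107% in unstressed chromatin, and its tRNA part is 32.1% of them against 13.1%.

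Per length, tRNAs and rRNAs stood far above the mRNAs in the cytoplasm. The median tRNA was at 1572 RPKM in unstressed cytoplasm and 2073 RPKM in heat-shocked cytoplasm, with ranges of 306 to 8359 and 641 to 10668. In chromatin the tRNA median was 34.2 RPKM without heat shock (0.813 to 535) and 578 RPKM after it (117 to 2707). The lowest tRNA was TrnY in each library but heat-shocked chromatin, where it was TrnK. TrnE, which carries glutamate, was the highest except in heat-shocked chromatin, where TrnP, the proline tRNA, was. The order of the 22 tRNAs was much alike in the 4 libraries, with rank correlations of 0.82 to 0.96 across genes. These are a description, since the genes share the libraries. Per the labels' protocols, 40 to 60 nt were cut from the gel for library preparation, and the tRNA genes are 59 to 75 bp long. The part of this size cut in the levels of the classes was not tested.

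**Figure D2:**
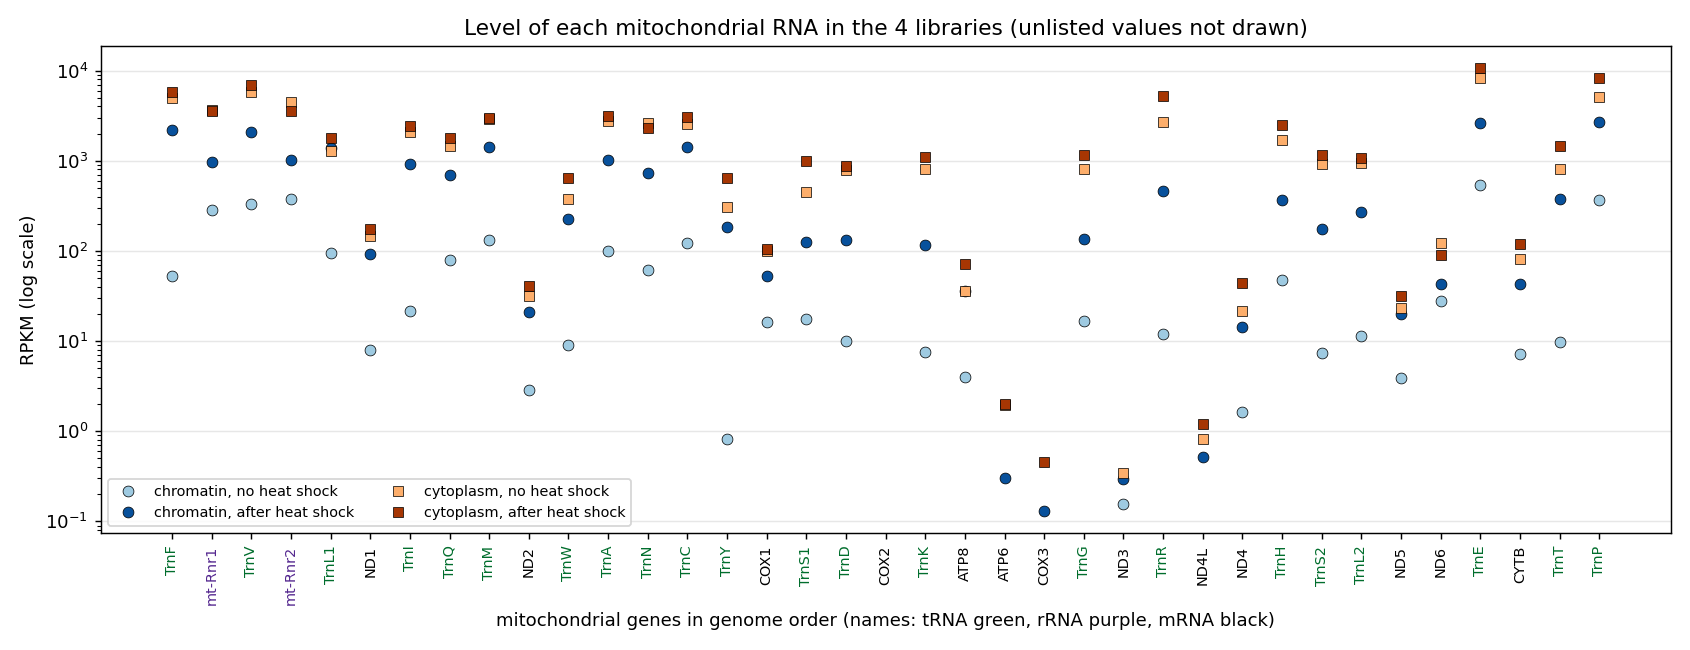
RPKM (log scale) of each mitochondrial gene in genome order, with 1 point per library and gene. Unstressed chromatin is the lowest library for each gene with values in all 4, TrnY is at 0.813 RPKM there, and the genes from ATP6 to ND4L other than tRNAs stay below 2 RPKM.

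In chromatin, each mitochondrial RNA with a ratio had a higher RPKM after heat shock. By class the tRNAs were highest in median and summed reads, and the rRNAs, COX1 and ND6 had the smallest folds. Single tRNAs and mRNAs overlapped, as TrnE was 4.85-fold and ND1 11.6-fold higher. Of the genes that reached the mean of 1 RPKM, 32 had values in both chromatin libraries. On log2(RPKM + 1), 31 of these were at least 2-fold higher and none at least 2-fold lower. Among all 4635 genes compared, 10.4% were at least 2-fold higher and 4.66% at least 2-fold lower. The median log2 ratio was 3.57 for the 22 tRNAs, 2.47 for 8 mRNAs and 1.61 for the rRNAs, against 0.12 for all genes. As summed reads, tRNAs were 9.66-fold higher (9.28 to 10.1), mRNAs 4.76-fold (4.48 to 5.06) and rRNAs 2.95-fold (2.90 to 3.01).

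The rRNAs had the largest counts. The RNA of the small ribosomal subunit, mt-Rnr1 (ENSMUSG00000064337; MT, 70 to 1024), was at 282 RPKM in unstressed and 960 RPKM in heat-shocked chromatin, and at 3616 and 3528 RPKM in unstressed and heat-shocked cytoplasm. It was 3.41-fold higher in chromatin after heat shock (3.30 to 3.52). The large subunit's mt-Rnr2 (ENSMUSG00000064339; MT, 1094 to 2675) was at 375 and 1030 RPKM in chromatin and at 4489 and 3540 RPKM in cytoplasm. Its chromatin fold was 2.75 (2.69 to 2.81). Both rRNAs were thus lower in either chromatin library than in either cytoplasmic one.

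Among the mRNAs, those of complex I (NADH dehydrogenase, the entry point of the respiratory chain) spanned the widest range. ND1 (ENSMUSG00000064341; MT, 2751 to 3707) was at 7.91 and 91.5 RPKM in chromatin without and after heat shock and at 146 and 174 RPKM in cytoplasm, and its chromatin fold of 11.6 (9.73 to 13.9) was the highest of the mRNAs. ND6, which is coded on the other strand from the remaining mRNAs (ENSMUSG00000064368; MT, 13552 to 14070), was at 28.0 and 43.0 RPKM in chromatin and at 121 and 90.7 RPKM in cytoplasm. With 1.54-fold (1.32 to 1.79), it was the 1 gene of the 32 short of 2-fold. In between were ND2, at 7.26-fold (5.48 to 9.80), ND4, at 8.78-fold (6.35 to 12.4), and ND5, at 5.17-fold (4.28 to 6.28). ND4 and ND5 had 41 and 129 reads in unstressed chromatin.

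Of the other complexes, COX1 (ENSMUSG00000064351; MT, 5328 to 6872) encodes the catalytic subunit of cytochrome c oxidase (complex IV). It was at 16.4 and 53.3 RPKM in chromatin and 99.4 and 104 RPKM in cytoplasm, a chromatin fold of 3.25 (2.93 to 3.61). CYTB (ENSMUSG00000064370; MT, 14145 to 15288), the mitochondrially coded subunit of complex III, was at 7.19 and 43.3 RPKM in chromatin and 81.3 and 119 RPKM in cytoplasm, a fold of 6.02 (5.07 to 7.19). ATP8, a subunit of ATP synthase, had 15 reads in unstressed and 142 in heat-shocked chromatin, and its fold was 8.90 (5.22 to 16.3). On the deposited scale the intervals of all 3 thus lay above 1. ATP8 lies in the stretch from COX2 to ND4L, where values are uncertain.

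All 22 tRNAs were at least 4.85-fold higher in chromatin after heat shock. TrnY, the tyrosine tRNA (ENSMUSG00000064350; MT, 5260 to 5326), had 1 read in unstressed chromatin against 243 in heat-shocked chromatin, and 170 and 478 reads in unstressed and heat-shocked cytoplasm. Its fold of 228 therefore has an interval of 40.6 to 9059. TrnF, the phenylalanine tRNA at the start of the MT sequence (ENSMUSG00000064336; 1 to 68), was at 52.1 and 2191 RPKM in chromatin and at 4953 and 5839 RPKM in cytoplasm. Its fold was 42.1 (32.9 to 54.7). The isoleucine tRNA, TrnI, had 27 and 1230 chromatin reads, a fold of 42.8 (29.3 to 65.2). Next came TrnR (arginine) at 38.9-fold (23.4 to 69.8), TrnT (threonine) at 38.5-fold (21.9 to 75.1) and TrnW (tryptophan) at 25.5-fold (14.0 to 51.6). Apart from TrnF, each of these 6 had 27 reads or fewer in unstressed chromatin, so their order is loosely set.

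The smallest tRNA folds were in TrnE, TrnV and TrnP, which had the most tRNA reads in unstressed chromatin, and in TrnS1, TrnG and TrnH. The latter had 22, 21 and 58 reads there. TrnE (ENSMUSG00000064369; MT, 14071 to 14139) was at 535 and 2593 RPKM in chromatin and 8359 and 10668 RPKM in cytoplasm, a chromatin fold of 4.85 (4.46 to 5.27). TrnV, the valine tRNA between the rRNA genes, was at 334 and 2079 RPKM in chromatin and 5743 and 6882 RPKM in cytoplasm, a fold of 6.23 (5.62 to 6.91). TrnP, the last gene of the MT sequence, was at 363 and 2707 RPKM in chromatin and 5141 and 8265 RPKM in cytoplasm, a fold of 7.45 (6.75 to 8.24). TrnS1 was between TrnV and TrnP at 7.22-fold (4.62 to 11.8). After TrnP came TrnH at 7.86-fold (5.98 to 10.5) and TrnG at 7.97-fold (5.06 to 13.2). The remaining 10 tRNAs lay between 8.63-fold (TrnQ) and 23.6-fold (TrnS2). The interval of TrnE did not overlap that of TrnV.

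TrnF and TrnV, which lie on either side of mt-Rnr1, showed how far 2 tRNAs could part. TrnV was 6.41 times TrnF in RPKM in unstressed chromatin and 0.949 times in heat-shocked chromatin. In cytoplasm the quotient was 1.16 without and 1.18 after heat shock. Unstressed chromatin was thus the library that stood apart.

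Other RNA also had higher ratios in the chromatin comparison. Of 79 other genes at 100 RPKM or more in both cytoplasmic libraries, a level chosen after the values were seen, 40 were at least 2-fold higher in heat-shocked chromatin and 2 at least 2-fold lower. Their median log2 ratio was 1.03 (quartiles 0.30 and 1.64), and that of 382 other genes with spans up to 200 bp was 0.32. These spans are the smallest lengths that fit a gene's values, so some of the genes may be longer. The part of cytoplasmic RNA in the pellet in these differences was not tested. Scaled to the same sum of mitochondrial mRNA reads, 16 of the 32 genes were at least 2-fold higher, and the log2 ratios of 4 turned below 0, with -0.48 for mt-Rnr1, -0.79 for mt-Rnr2, -0.54 for COX1 and -1.61 for ND6. With RPKM sums made equal, ND6 was at -0.02 and no other ratio changed sign.

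**Figure D3:**
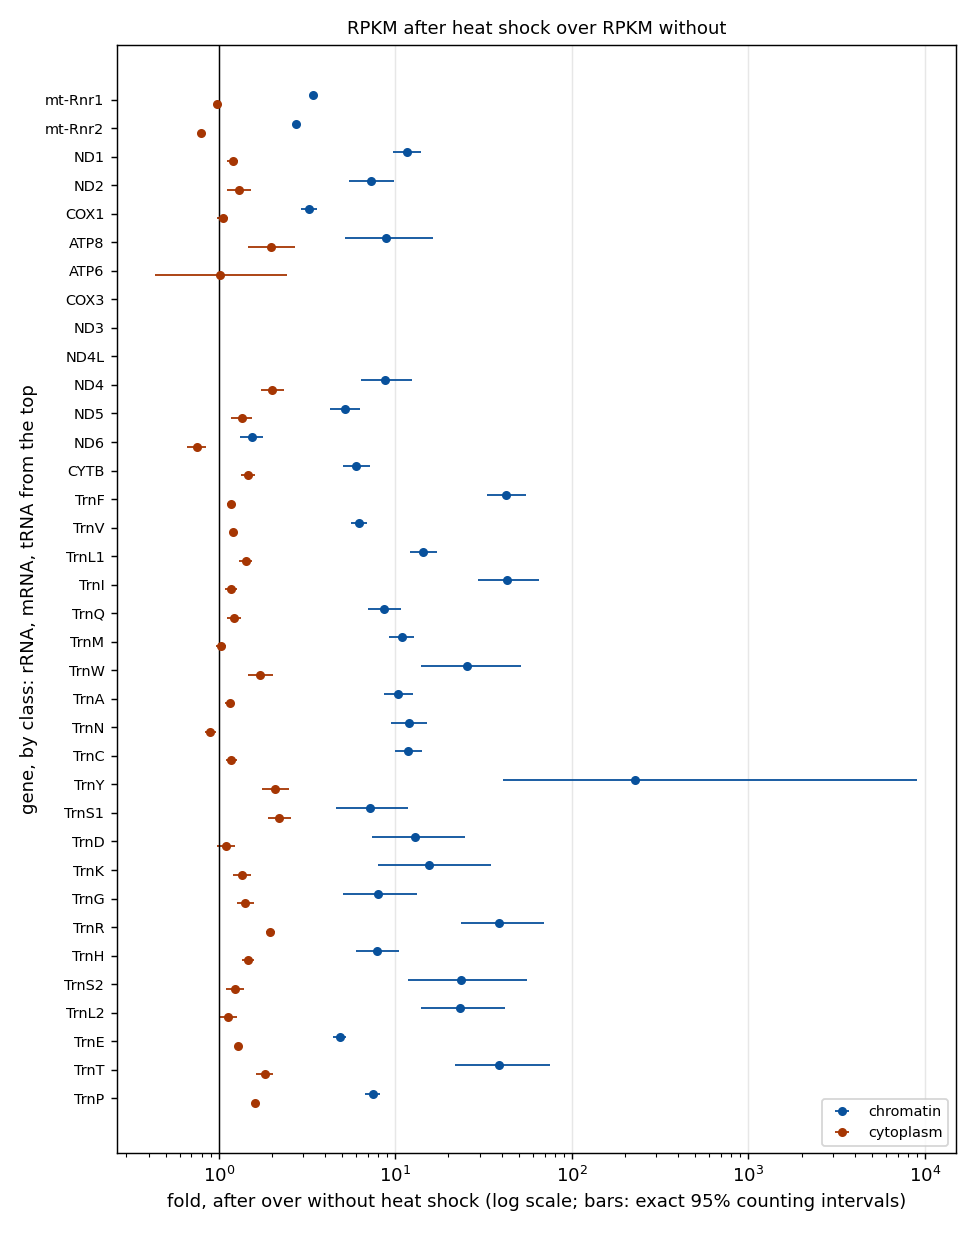
RPKM after heat shock over RPKM without it (log scale) for each gene with at least 20 reads over the compared libraries, in chromatin and cytoplasm, with exact 95% counting intervals. The chromatin points lie to the right of the cytoplasmic ones for each gene drawn in both, from 1.54 for ND6 to 228 for TrnY.

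In cytoplasm, heat shock went with small differences, most tRNAs and mRNAs being slightly higher and the rRNAs, TrnN and ND6 lower. On log2(RPKM + 1), 2 of 33 genes were at least 2-fold higher, TrnS1 and TrnY, and none was lower. Of all 4505 genes, 3.40% were at least 2-fold higher and 2.44% lower. Median log2 ratios were 0.33 for tRNAs, 0.37 for 9 mRNAs and -0.19 for rRNAs, against -0.25 for all genes. The intervals of 25 genes were above 1 and those of 4 below it, and TrnM, COX1, TrnD and ATP6 had intervals that include 1. The signs of such small differences depend on the scale, and once all genes were centred on a median of 0, the rRNA median was 0.06 and 7 genes were at least 2-fold higher. With RPKM sums made equal, 0 were, and 7 of the 33 ratios changed sign.

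The serine tRNA TrnS1 was at 453 RPKM without and 997 RPKM after heat shock (2.20-fold, 1.91 to 2.55), and TrnY at 306 and 641 RPKM (2.09-fold, 1.75 to 2.51). TrnR followed at 1.95-fold (1.84 to 2.08), TrnT at 1.82-fold (1.63 to 2.04), TrnW at 1.72-fold (1.46 to 2.03) and TrnP at 1.61-fold (1.54 to 1.68). TrnN, the asparagine tRNA, was at 2611 and 2338 RPKM (0.896-fold, 0.837 to 0.959). It was the 1 tRNA with a lower level after heat shock. TrnM was at 1.03-fold (0.969 to 1.10), TrnD at 1.10-fold (0.975 to 1.24), TrnL2 at 1.13-fold (1.02 to 1.26), TrnA at 1.15-fold (1.08 to 1.22) and TrnI at 1.17-fold (1.08 to 1.26).

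Of the mRNAs in cytoplasm, ND4 was at 21.8 and 43.7 RPKM (2.00-fold, 1.73 to 2.33) and ATP8 at 36.1 and 70.9 RPKM (1.97-fold, 1.46 to 2.69). ATP8 fell short of 2-fold with or without the pseudocount of 1 RPKM, and ND4 only with it. CYTB was 1.46-fold higher (1.34 to 1.60), ND5 1.35-fold (1.18 to 1.54), ND2 1.30-fold (1.12 to 1.52) and ND1 1.20-fold (1.11 to 1.29). COX1 was at 1.05-fold (0.974 to 1.13). ND6 was at 0.748-fold (0.661 to 0.846), with 522 and 524 reads. Of the rRNAs, mt-Rnr2 was at 0.788-fold (0.780 to 0.797) and mt-Rnr1 at 0.976-fold (0.961 to 0.991). In RPKM, mt-Rnr2 was 1.24 times mt-Rnr1 without heat shock and 1.00 times after it, and in chromatin 1.33 and 1.07 times.

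Each of the 32 genes with values in all 4 libraries had a larger log2 ratio in chromatin than in cytoplasm, and the difference was at least 1 for all 32. Of 4473 genes with both ratios, 16.5% reached this and 4.52% reached it the other way. The median difference was 3.37 for tRNAs, 1.79 for mRNAs and 1.80 for rRNAs, against 0.37 for all genes. TrnY was at 5.62, TrnF and TrnI at 5.13, and ND6 lowest at 1.02. Among the mRNAs ND1 stood highest, at 3.12, and the next, ND2, was at 2.13. Both rRNAs were at 1.80, although their separate ratios differed. With 1 library per group these differences between fractions were not tested.

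On the deposited scale, chromatin held less of each mitochondrial RNA than cytoplasm in unstressed cells. All 32 genes with values in both libraries were at least 2-fold lower in chromatin, where 11.7% of 4512 genes were (32.4% were at least 2-fold higher). Log2 ratios of chromatin over cytoplasm had a median of -5.32 for tRNAs, -3.63 for rRNAs and -2.98 for mRNAs, against 0.58 for all genes. As summed reads, tRNAs were 24.6-fold lower in chromatin (23.6 to 25.6), rRNAs 12.2-fold (12.0 to 12.5) and mRNAs 8.19-fold (7.69 to 8.72). With mitochondrial mRNA sums made equal, 20 of the 32 were at least 2-fold lower, and COX1, ND5 and ND6 turned to log2 ratios of 0.43, 0.42 and 0.91. Centring all genes on a median of 0 moved the log2 ratios the other way, by -0.58. Comparisons that share a library are not independent, and low reads in unstressed chromatin enter this ratio and the heat shock ratio in chromatin alike.

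The tRNAs farthest toward cytoplasm were TrnR (15 chromatin reads against 1499, 221-fold lower, 134 to 396), TrnY (1 against 170, 376-fold, 66.7 to 14957) and TrnS2 (8 against 455, 126-fold, 63.4 to 294). TrnK was 107-fold lower (56.0 to 236), TrnF 95.2-fold (74.4 to 124) and TrnI 96.9-fold (66.2 to 148). At the other end were TrnL1 (13.3-fold lower, 11.0 to 16.1), TrnP (14.2-fold, 12.8 to 15.7), TrnE (15.6-fold, 14.4 to 17.0), TrnV (17.2-fold, 15.5 to 19.1), TrnQ (18.2-fold, 14.9 to 22.6) and TrnC (21.1-fold, 17.8 to 25.2). TrnL1 is the tRNA that directly precedes ND1, and ND1 was 18.4-fold lower in chromatin (15.4 to 22.1). The mRNA closest to equal levels was ND6, 4.33-fold lower (3.73 to 5.04), followed by ND5 at 6.03-fold (4.91 to 7.43) and COX1 at 6.07-fold (5.45 to 6.76). CYTB, ND2 and ND4 were 11.3-fold, 10.9-fold and 13.5-fold lower. ATP8 was 9.01-fold lower with a wide interval (5.06 to 17.1).

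After heat shock the mitochondrial RNAs were still lower in chromatin than in cytoplasm on the deposited scale, by less. Of 33 genes, 27 were at least 2-fold lower and none at least 2-fold higher, against 6.93% and 45.8% of 4575 genes. The median log2 ratio was -1.75 for tRNAs, -1.83 for rRNAs and -0.97 for mRNAs, and 0.92 for all genes. Summed reads were 3.32-fold lower in chromatin for tRNAs (3.27 to 3.37), 3.52-fold for rRNAs (3.48 to 3.56) and 2.10-fold for mRNAs (2.03 to 2.17). Scale moves the count, as 7 genes were at least 2-fold lower with RPKM sums made equal and likewise with mitochondrial mRNA sums made equal. Centring all genes on a median of 0 moved the log2 ratios the other way, by -0.92. The gap in read shares was also wider without the 10 other genes with the most reads, at 0.628% in chromatin against 6.99% in cytoplasm. With equal RPKM sums, 9 of the 33 ratios turned above 0 (TrnL1, TrnM, TrnC, ND1, ND2, ND5, ND6, COX1 and ATP8), and those of TrnM, TrnC and ND6 were 0.18, 0.18 and 0.17.

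The folds were also closer together than in unstressed cells. Among tRNAs they ran from 1.31-fold lower (TrnL1, 1.22 to 1.40) to 11.1-fold lower (TrnR, 10.2 to 12.1). TrnC and TrnM were both 2.11-fold lower, TrnQ 2.58-fold, TrnI 2.64-fold and TrnF 2.66-fold (2.54 to 2.79). TrnY, at 243 reads in chromatin against 478 in cytoplasm, was 3.45-fold lower (2.95 to 4.05) and no longer at the end of the range. ND5 was the mRNA closest to equal levels, 1.58-fold lower (1.41 to 1.76), and ND1, COX1, ND2 and ATP8 were 1.90-fold to 1.99-fold lower. ND6 was 2.11-fold lower, CYTB 2.75-fold and ND4 3.07-fold. ATP6, with 4 reads against 15, was 6.58-fold lower (2.10 to 27.2).

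The 7 tRNAs with the lowest ratios after heat shock were consecutive among the tRNAs of the genome, from TrnS1 through TrnD, TrnK, TrnG, TrnR and TrnH to TrnS2 (MT, 6870 to 11671). This run was singled out after its values were seen, so it is a description. It encloses the stretch from COX2 to ND4L, where values, and those of the genes beside it, are uncertain as said above. TrnK, TrnG and TrnR lie inside that stretch. The part of reads that match more than 1 place in these ratios was not tested. These 7 were 6.57-fold to 11.1-fold lower in chromatin, and the other 15 tRNAs 1.31-fold to 4.11-fold lower. As summed reads, the run was 8.52-fold lower (8.12 to 8.95) and the others 2.90-fold (2.86 to 2.95). In unstressed cells the single tRNAs of both sets overlapped, at 26.1-fold to 221-fold and 13.3-fold to 376-fold lower. The run was lower there too as summed reads, with 0.0146 of the cytoplasmic level in chromatin (0.0123 to 0.0173) against 0.0456 (0.0437 to 0.0475) for the others. Of the mRNAs that lie inside the run, ATP8 and ND4 were 1.99-fold and 3.07-fold lower after heat shock, while ATP6, with its few reads, was 6.58-fold lower.

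**Figure D4:**
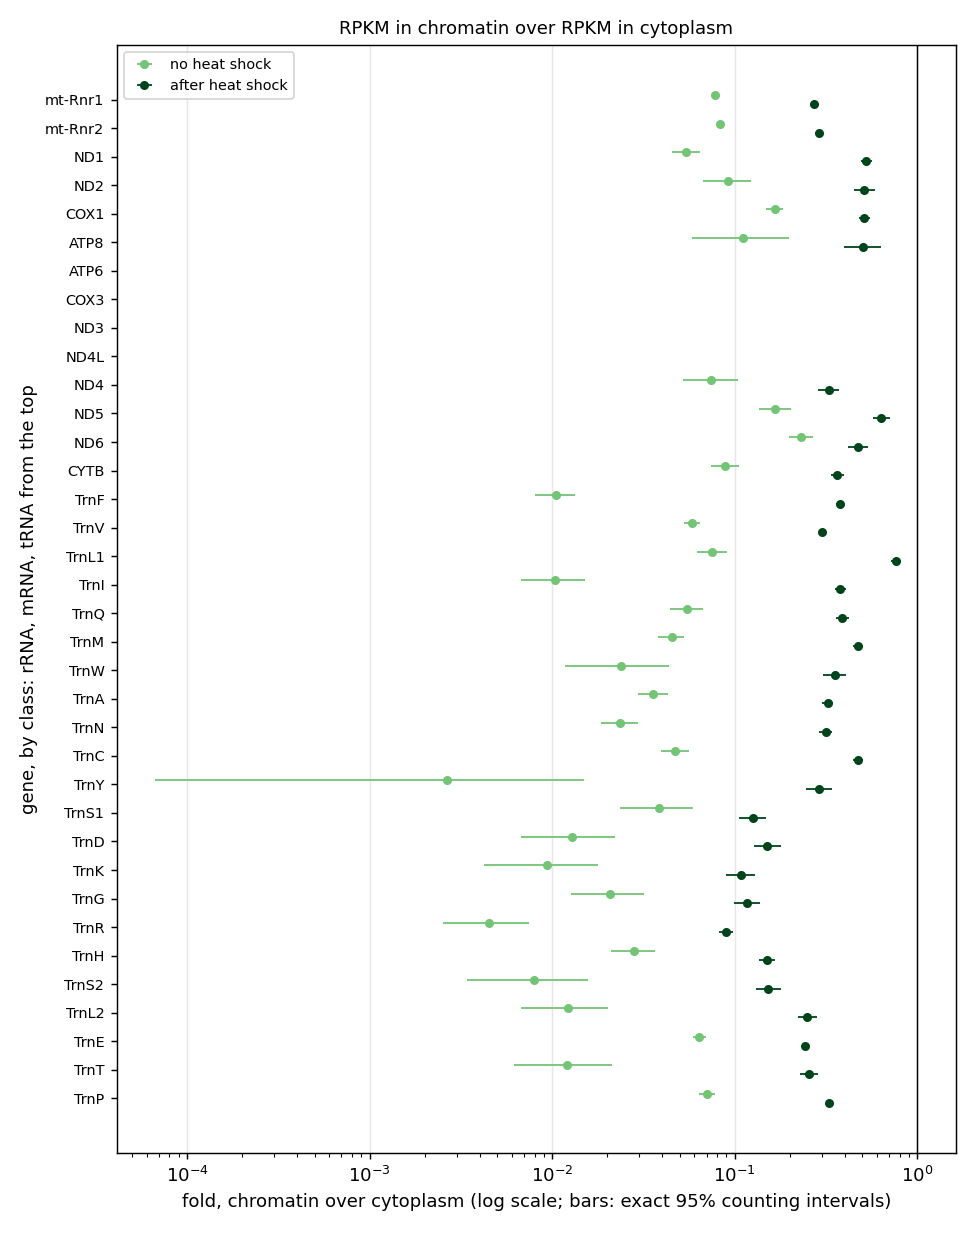
RPKM in chromatin over RPKM in cytoplasm (log scale) without and after heat shock for each gene with at least 20 reads over the compared libraries, with exact 95% counting intervals. Each point lies below 1, the points after heat shock lie closer to 1, and the tRNAs from TrnS1 to TrnS2 form a group at 0.0898 to 0.152 after heat shock. This group encloses the stretch from COX2 to ND4L, where values are uncertain.

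The genes were last compared by the strand that codes for them. In mammals ND6 and 8 of the tRNAs (TrnQ, TrnA, TrnN, TrnC, TrnY, TrnS1, TrnE and TrnP) are coded on the light strand and the remaining genes on the heavy strand, each strand having its own start region near the end of the MT sequence. Light-strand genes held 48.7% of tRNA and mRNA reads in unstressed chromatin (47.1 to 50.3) and 39.8% in heat-shocked chromatin (39.2 to 40.3). In cytoplasm they held 42.0% without (41.4 to 42.5) and 41.6% after heat shock (41.2 to 42.0), with overlapping intervals. As summed reads, heavy-strand tRNAs were 13.4-fold higher in chromatin after heat shock (12.5 to 14.3) and light-strand tRNAs 7.41-fold (7.04 to 7.81). In cytoplasm they were 1.31-fold (1.28 to 1.33) and 1.30-fold (1.28 to 1.33) higher. TrnE and TrnP made up most light-strand reads in each library, so the light-strand sums follow these genes. Strand handling is not given in the sources used here. Reads of ND6, or of any other gene, thus cannot be told apart from RNA of the opposite strand at its place. The light-strand and heavy-strand values are therefore sums by annotated gene, not by the strand of the RNA read.

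Levels along each strand did not form a plain slope. The first tRNAs of the heavy strand, TrnF and TrnV, were at 4953 to 6882 RPKM in both cytoplasmic libraries, and those from TrnW to TrnG were at 376 to 1148 RPKM there. TrnR, at 2658 and 5196 RPKM, and TrnH, at 1688 and 2467 RPKM, stood above TrnG before them and TrnS2 after them. Across the 14 heavy-strand tRNAs, the rank correlation of level with order from the start was -0.46 and -0.43 in cytoplasm and -0.64 and -0.57 in chromatin, without and after heat shock. On the light strand TrnP and TrnE come first and were highest, TrnS1 and TrnY were lowest in both cytoplasmic libraries, and the 4 that follow lay between 1456 and 3170 RPKM. The rank correlations over these 8 tRNAs were -0.31 to -0.38.

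Quotients of mRNAs within a library changed as well. ND6 was 7.27 times ND5 in RPKM in unstressed chromatin and 2.16 times in heat-shocked chromatin, 5.23 times in unstressed cytoplasm and 2.89 times in heat-shocked cytoplasm. CYTB was 0.257, 1.01, 0.670 and 1.31 times ND6 in the same order. ND4 was 0.421 times ND5 in unstressed and 0.715 times in heat-shocked chromatin, and 0.939 and 1.39 times in cytoplasm. After heat shock ND6 was thus lower relative to both neighbours, and ND4 higher relative to ND5, in either fraction.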

How the data were processed

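RNA-seq of chromatin and cytoplasm was analysed in 1 library per fraction and condition, grouped by sample title. The authors deposited RPKM per Ensembl gene. Per the submitters' processing notes, GRCm38, cutadapt and STAR were used, with no versions. The sources used here do not give the read counter, annotation, strand handling or treatment of reads with several matches.

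The members and lists were chosen with earlier results of these data known. Library totals were taken as the unit that made RPKM times RefSeq length (GRCm38.p6) whole for all members, and reads followed from them (method tested on simulated data). For other genes, the smallest whole reads and span that fit their values were taken, so both can be too low. This also holds for the 10 other genes with the most reads that were left out of totals. The rRNAs and mRNAs alone gave the same totals. Log2((RPKM + 1)/(RPKM + 1)) was computed for genes whose 4 libraries averaged 1 RPKM or more, with reads in both. Genes at least 2-fold apart were counted over all genes. Printed folds are plain RPKM ratios with exact 95% Clopper-Pearson intervals. There was no test. All members could be named, and of the tRNAs up to 6 highest and 6 lowest log2 ratios per comparison were given singly, among those with at least 10 reads in 1 library. Lists of nuclear genes were not used, as no table paired them with identifiers. No sequence of mitochondrial DNA was at hand. Alternatives concerned pseudocount, filter, scale, threshold and overlapping genes. Python 3.11.15, numpy 2.4.6, pandas 2.3.3, scipy 1.17.1 and matplotlib 3.10.9 were used.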

Additional observations from a re-analysis of the deposited data

Results flagged for a closer look

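In 4 genes the heat shock ratio was above 0 in chromatin and below 0 in cytoplasm. The log2 ratios of RPKM + 1 were 1.76 and -0.04 for mt-Rnr1, 1.46 and -0.34 for mt-Rnr2, 3.56 and -0.16 for TrnN, and 0.60 and -0.42 for ND6. Each direction rests on 1 library per group, and the difference between fractions was not tested. When all genes are centred on a median of 0, cytoplasmic ratios are 0.25 higher, which turns those of mt-Rnr1 and TrnN to 0.22 and 0.09. With mitochondrial mRNA sums made equal, the chromatin ratios of mt-Rnr1, mt-Rnr2 and ND6 were -0.48, -0.79 and -1.61, so these had no opposite signs, while TrnN kept them at 1.33 and -0.45. With RPKM sums made equal, ND6 was at -0.02 in chromatin and the other 3 genes kept opposite signs.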

How the results depend on the processing

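No paired analysis was possible because each group has 1 library, and for the same reason none could be left out. Depth limits the tRNAs in unstressed chromatin most, where TrnY had 1 read. Pseudocounts of 0.1 and 0, no filter on low values, and leaving out genes with under 10 reads kept each count of 2-fold genes within 1.5 times. With the mitochondrial mRNA sums made equal, genes at least 2-fold higher in chromatin after heat shock were 16 and at least 2-fold lower 1, none was 2-fold higher in cytoplasm (0), and 20 and 7 were 2-fold lower in chromatin than in cytoplasm without and after heat shock. On that scale the chromatin rRNA median was -0.64, mt-Rnr1 -0.48, mt-Rnr2 -0.79, COX1 -0.54 and ND6, the 1 gene 2-fold lower, -1.61, and COX1, ND5 and ND6 were at 0.43, 0.42 and 0.91 in unstressed chromatin against cytoplasm. With the same RPKM sum, 0 genes were 2-fold higher in cytoplasm after heat shock, 7 were 2-fold lower in heat-shocked chromatin than cytoplasm, TrnM, TrnC and ND6 were at 0.18, 0.18 and 0.17 there, and ND6 was at -0.02 in chromatin after heat shock. After centring all genes on 0, 7 genes were 2-fold higher in cytoplasm, and 0 were when libraries were scaled on RPKM sums that omit the 10 highest genes. A 3-fold threshold gave 0 and, for heat-shocked chromatin against cytoplasm, 17. Without the 16 genes that overlap another, all remaining 19 stayed past 2-fold for chromatin after heat shock and for unstressed fractions, and 1 did in cytoplasm. Without the 10 other genes with the most reads in the total, mitochondrial shares were 0.137% and 0.628% in chromatin and 5.99% and 6.99% in cytoplasm, where the share was thus higher, not lower, after heat shock. Without rRNAs, tRNAs held 67.1%, 80.6%, 86.0% and 86.8% of mitochondrial reads, and without overlapping genes light-strand shares were 58.1%, 47.5%, 47.7% and 46.8%. Apart from the fewer genes in the sets without overlaps, the cause of these moves was not tested.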
